A study of Mus musculus with 42 samples.

Results

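The genes described are 10 that are known as targets of the hypoxia-inducible factors (HIF) or that act at the entry to, within or at the exit of glycolysis, namely Vegfa, Adm, Egln3, Ndrg1, Bnip3, Car9, Slc2a1, Pgk1, Ldha and Pdk1. Every probe set on either chip whose only gene symbol in the platform annotation is one of these was taken, which gave 24 of the 45265 probe sets, 21 on the first chip (MOE430A, 430A below) and 3 on the second (MOE430B, 430B below). All 24 passed the filter on low signal. The cells were D3, a mouse embryonic stem line made from a blastocyst, under conditions meant to turn them into osteoblasts, which build bone. The groups are 7 days of that course, namely day 4, day 5, day 6, day 8, day 16, day 25 and day 30, with 3 RNA samples a day and each RNA on both chips, so 42 arrays. All groups share 1 line and a medium that the labels describe with vitamin D3, beta-glycerophosphate and ascorbic acid, while the sample titles carry VD3 only for day 6 and later. Time in culture and that title therefore cannot be told apart. The labels call the cells a clone, leave contaminating cell types undetermined and do not say whether replicates came from different cultures. Every p-value thus weighs a difference against the scatter of these samples, which may be technical. No cultures without the osteogenic supplements and no measure of oxygen were analysed here, and the labels name no change in oxygen.

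In normal oxygen the prolyl hydroxylases of the Egln family mark the alpha subunits of HIF for breakdown through the Vhl protein. When oxygen is scarce the alpha subunit is stable, pairs with Arnt and binds a short core sequence near its targets. Those targets include secreted vessel factors (Vegfa, Adm), the feedback hydroxylase Egln3, the mitophagy protein Bnip3 and the membrane carbonic anhydrase Car9. They also include the glucose transporter Slc2a1, the glycolytic enzymes Pgk1 and Ldha, and Pdk1, which switches off pyruvate dehydrogenase. In bone, Vegfa from bone-forming cells is known for drawing in blood vessels. Many of these genes also answer to other factors, and signal on an array does not show which factor acted.

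The sequences before the start sites are shown because the core motif that HIF binds can be looked for in them, in genes with a late rise past the threshold and in genes without one. RefSeq promoter windows (assembly GRCm38.p6, 250 bases before to 50 after each start) were given for 9 of the 10 genes, with 12 start sites. The motifs searched on both strands were ACGTG and GCGTG. The palindrome CACGTG, the E-box read by other factors such as Myc, overlaps ACGTG and then counts once on each strand. A core was found in 10 of the 12 windows and in a window of each of the 9 genes, while 43.8% of all 32851 windows of the same length held one. For Vegfa that window belongs to a start site inside the gene. At least 2 cores stood in 8 of the 12 windows, against 20.6% of all windows. The windows of these genes were mostly rich in G and C (54.7 to 71.7%, apart from the second start site of Pdk1 at 40.3%, with a median of 52.7% over all windows), and the motif holds G and C itself, so the shares are a description only. The 250 bases before the start follow, 5′ to 3′ on the gene's strand, with each core in capitals.
Car9 (GRCm38.p6, chr4:43506776-43507025, plus strand): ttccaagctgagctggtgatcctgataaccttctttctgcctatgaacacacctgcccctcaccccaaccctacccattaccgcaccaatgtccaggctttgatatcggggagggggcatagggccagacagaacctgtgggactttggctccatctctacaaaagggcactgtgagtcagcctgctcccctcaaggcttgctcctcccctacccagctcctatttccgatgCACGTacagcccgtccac
Egln3 (GRCm38.p6, chr12:54203875-54204124, minus strand): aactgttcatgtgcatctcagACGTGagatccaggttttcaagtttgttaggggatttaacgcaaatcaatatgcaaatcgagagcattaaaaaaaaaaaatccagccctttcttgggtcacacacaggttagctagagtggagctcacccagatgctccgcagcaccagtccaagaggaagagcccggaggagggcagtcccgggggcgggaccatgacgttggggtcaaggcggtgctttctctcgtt
Adm (GRCm38.p6, chr7:110627407-110627656, plus strand): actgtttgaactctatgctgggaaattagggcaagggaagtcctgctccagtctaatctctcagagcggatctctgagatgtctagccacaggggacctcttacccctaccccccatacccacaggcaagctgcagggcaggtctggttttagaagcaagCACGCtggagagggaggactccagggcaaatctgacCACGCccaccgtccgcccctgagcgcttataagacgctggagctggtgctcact
Bnip3 (GRCm38.p6, chr7:138909507-138909756, minus strand): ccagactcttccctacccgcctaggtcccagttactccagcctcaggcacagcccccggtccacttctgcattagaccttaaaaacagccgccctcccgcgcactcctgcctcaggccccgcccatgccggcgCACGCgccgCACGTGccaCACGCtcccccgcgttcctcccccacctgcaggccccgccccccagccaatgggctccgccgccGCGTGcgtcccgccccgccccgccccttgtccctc
Pgk1 (GRCm38.p6, chrX:106186850-106187099, plus strand): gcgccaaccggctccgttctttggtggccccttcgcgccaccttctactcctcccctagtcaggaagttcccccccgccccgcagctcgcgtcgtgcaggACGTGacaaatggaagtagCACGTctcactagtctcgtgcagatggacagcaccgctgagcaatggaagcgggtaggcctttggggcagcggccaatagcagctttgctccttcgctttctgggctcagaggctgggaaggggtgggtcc
Ldha (GRCm38.p6, chr7:46845554-46845803, plus strand): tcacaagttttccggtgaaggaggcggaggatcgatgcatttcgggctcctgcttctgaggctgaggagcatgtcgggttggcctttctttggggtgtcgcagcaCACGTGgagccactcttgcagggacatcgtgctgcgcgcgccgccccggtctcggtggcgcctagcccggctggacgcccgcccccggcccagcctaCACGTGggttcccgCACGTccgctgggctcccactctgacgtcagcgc
Car9 held a single core at position -18 from the start (the leftmost base of the core is counted) and Egln3 a single core at -229. Adm held 2 cores of the GCGTG kind, at -90 and -54. Bnip3 held 5, at -117, -108, -107, -99 and -35, and the pair at -108 and -107 is a CACGTG. Pgk1 held 2, at -150 and -131. The first start site of Ldha held 5 in the stretch shown, which include 2 copies of CACGTG, and 2 more after the start. Of the genes not printed, Slc2a1 held 2 cores in this stretch and Pdk1 held 1 and 0 at its 2 start sites. Vegfa held 2 at its start site inside the gene and 0 at the one at the gene's 5′ end. Over all start sites the count thus ran from 0 to 5 both in the 5 genes with a window that had probe sets higher on day 30 (Vegfa, Adm, Egln3, Bnip3 and Car9) and in the 4 with none (Slc2a1, Pgk1, Ldha and Pdk1). A core in these letters is not a shown binding site.

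Differences between days were tested for each chip in limma over all 21 arrays, with Benjamini-Hochberg adjustment over all tested probe sets of the chip and a threshold of 0.05 on the adjusted p. Over the 7 days 20 of the 24 probe sets passed the F test. These were 19 of 21 on 430A, where 36.2% of all tested probe sets passed, and 1 of 3 on 430B, where 9.73% passed. The 4 that did not pass are the 4 probe sets of Pdk1. The genes split in their course. Vegfa, Adm, Egln3, Ndrg1, Bnip3 and Car9 have 13 probe sets, of which 11 were higher and 0 were lower on day 30 than on day 4, and 9 were already higher on day 16. The 4 that did not pass on day 16 were Egln3 1418648_at, Ndrg1 1423413_at and 1450977_s_at and Adm 1447839_x_at, with log2 differences of 0.28, 0.01, 0.14 and 1.82 from day 4. Ldha ended lower, and Slc2a1, Pgk1 and Pdk1 each had probe sets that were lower on day 30 and others that did not pass, with none higher. For Slc2a1, Ldha and Pgk1 the fall depended on how the arrays were scaled, as given with each.

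**Figure D1:**
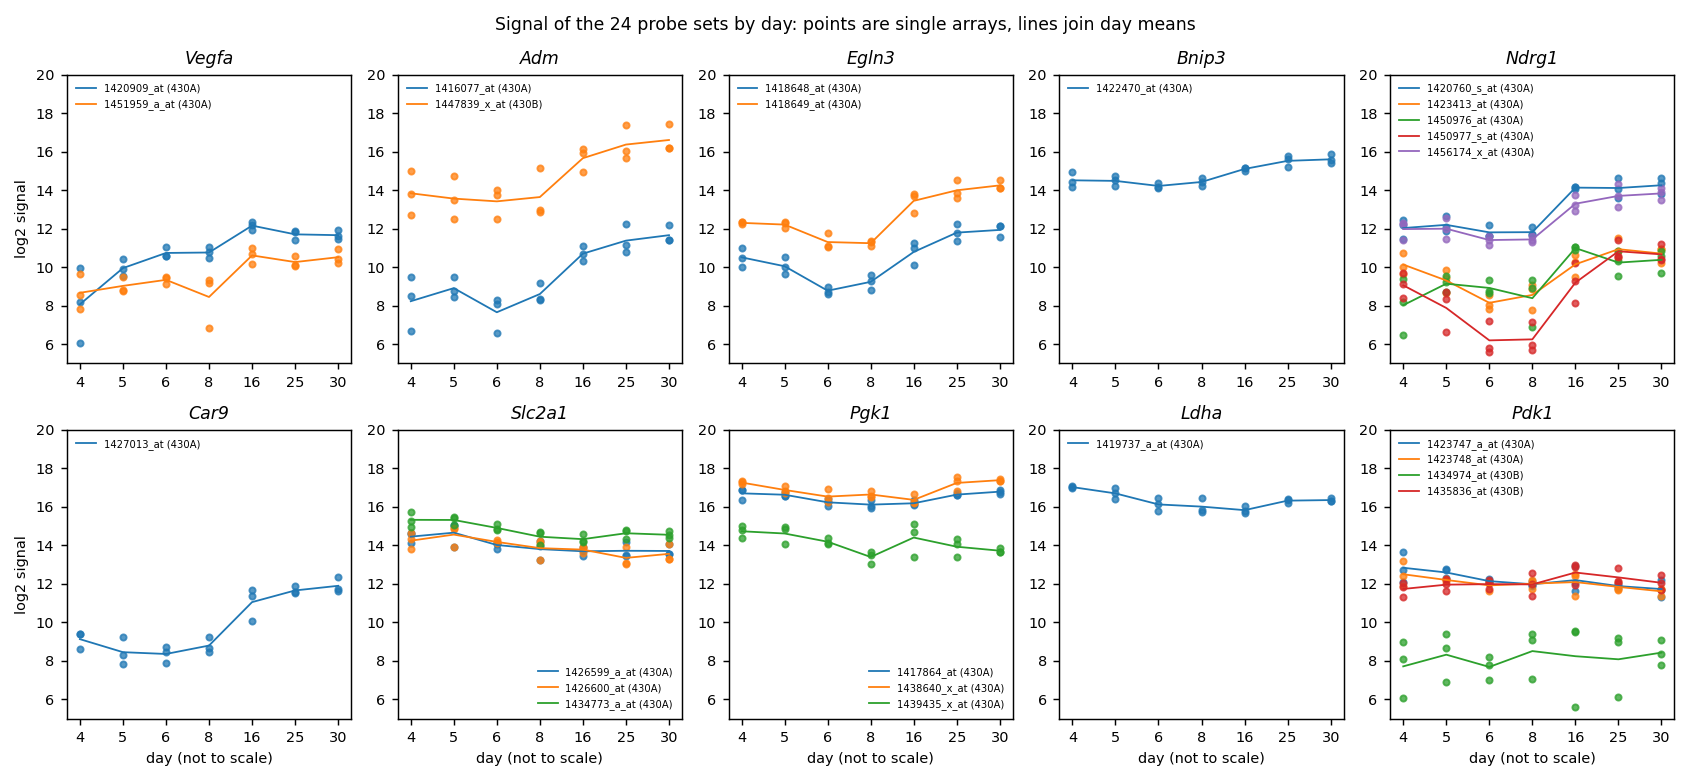
Log2 signal (vertical axis) of the 24 probe sets by day (horizontal axis, evenly spaced and not to scale), 1 panel per gene, with a point per array and a line through the mean of 3 replicates. Egln3, Ndrg1, Car9 and Adm lie highest on days 16 to 30, while Ldha lies highest on day 4. Levels of different probe sets are not comparable.

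Relative to day 4, no probe set of these genes passed on day 5, when 0.00573% of all tested probe sets did, and 1 of the 24 had an unadjusted p under 0.05 in limma's fit. On day 6 there was 1 higher (background 4.06% on 430A) and 6 were lower (3.4%). On day 8 there was again 1 higher (9.64%), and 9 were lower (6.83%). On these days the share with lower signal was above the background and the share with higher signal near it. On day 16 there were 9 higher (14.1%) and 4 lower (11.5%), all on 430A. On day 25 there were 11 higher on 430A (13.4%) and 1 on 430B (3.59%), with 4 lower on 430A (13%). On day 30 there were 10 higher on 430A (14.2%) and 1 on 430B (4.22%), with 5 lower on 430A (13.9%). The median log2 difference of the 24 probe sets was -0.50 on day 6, -0.51 on day 8, 0.40 on day 16, 0.91 on day 25 and 0.90 on day 30. Over all tested probe sets the median was 0.01, -0.01, -0.03, -0.01 and -0.06 on the same days. These comparisons share the day 4 arrays. The count on day 6 was 2 without replicate 1 of day 6, and the count on day 8 was 5 without replicate 1 of day 8, while the counts on days 16, 25 and 30 lay at 12 to 14, 11 to 17 and 12 to 18 when single arrays were left out. Among these the lower ones numbered 3 to 5, 1 to 5 and 2 to 6. The fewest on day 25 came without day 25 replicate 2. The fewest on day 30 came without day 4 replicate 1 and also without any single replicate of day 30. With quantile normalization 0, 1 and 2 were lower on days 16, 25 and 30, and 9, 12 and 12 were higher.

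**Figure D2:**
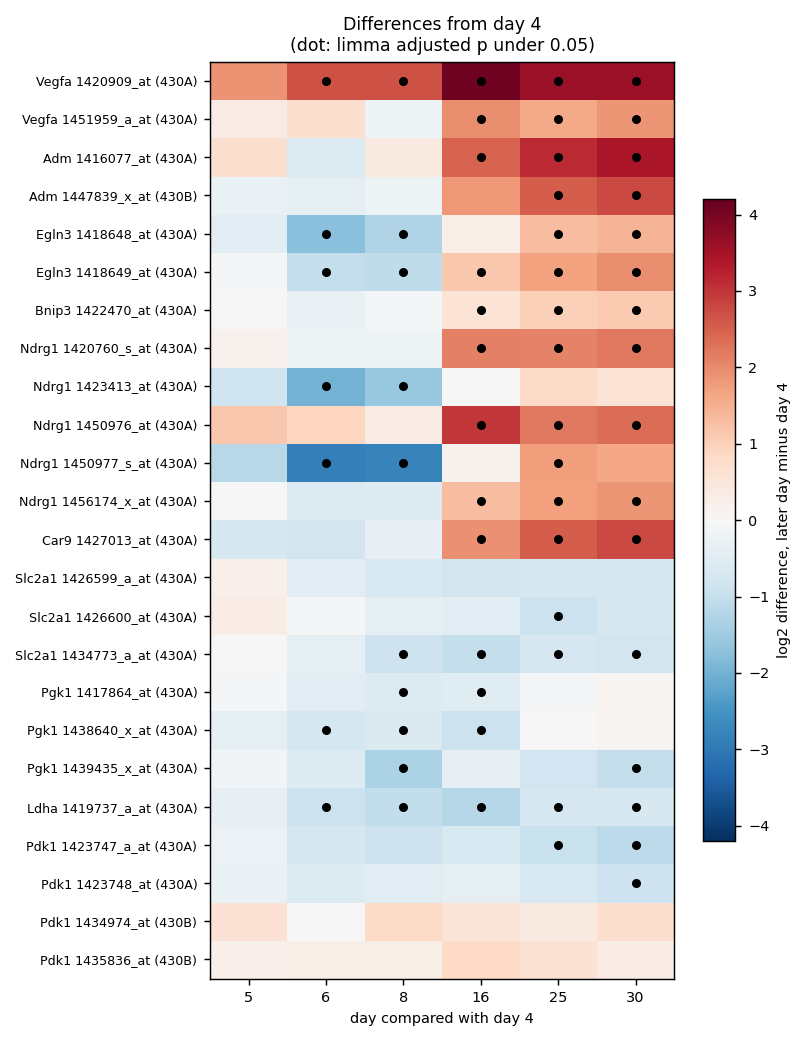
Log2 difference from day 4 (colour, red higher and blue lower) of the 24 probe sets (rows) on the 6 later days (columns), with a dot where limma's adjusted p was under 0.05. Dots on red begin on day 6 for Vegfa and on day 16 or later for the others. Dots on blue stand mostly on days 6 and 8 for Egln3 and Ndrg1 and run to day 30 for Ldha and a Slc2a1 probe set.

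Several facts of the series touch these values. Scan batches read from the array headers hold days 4 and 5 on 430A in 1 batch, days 6, 8 and 16 in the next and days 25 and 30 in later ones, so on 430A a difference of days 6 to 30 from day 4 cannot be told apart from a difference between scan batches. Day 16 can be set against days 6 and 8 within 1 batch on both chips. The day 4 replicates were unequal: 5 markers of pluripotent cells summed to a signal of 19256, 70969 and 115802 in replicates 1 to 3. These markers summed to 1662 to 1993 on day 30, and 5 of the 6 on the list passed as lower there. Of the 5 tested osteoblast markers 3 were higher on day 30 than on day 4 (Sparc, Col1a1 and Col1a2, log2 differences 4.70, 4.07 and 4.07), while Alpl (-1.23) and Sp7 (0.37) did not pass, and Ibsp failed the filter. The matrix genes that rose are not particular to osteoblasts. The ratio of the 3′ to the 5′ Gapdh control probe sets, a sign of RNA quality, stood at 2.55 ± 0.15 for day 16, at 3.84 ± 0.38 for day 25 and at 3.27 ± 0.19 for day 30, against 2.63 ± 0.37 for day 4 (log2 on 430A, SD, n = 3). The same ratio of beta-actin was 2.19 ± 0.18 for day 16, 2.63 ± 0.14 for day 25 and 2.49 ± 0.22 for day 30, against 2.62 ± 0.54 for day 4. The part of RNA quality in the results was not tested. In these bulk samples fewer cells of a type and less RNA per cell cannot be told apart.

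Vegfa, the main growth factor of blood vessels, rose earliest. Its probe set 1420909_at had a log2 signal of 9.96, 6.06 and 8.18 on day 4, 9.88, 10.44 and 9.52 on day 5, 10.59, 10.58 and 11.03 on day 6, and 10.78, 11.03 and 10.46 on day 8. It stood at 12.33, 12.20 and 11.93 on day 16, 11.88, 11.42 and 11.80 on day 25 and 11.90, 11.63 and 11.44 on day 30. All arrays of day 6 and later lie above all arrays of days 4 and 5, and the 3 arrays of day 16 are the highest of the course. The value of day 4 replicate 2 lies under the 20th percentile of the chip (log2 6.95), which is used as a floor here, so folds against day 4 are bounds with that value raised to the floor. By that bound day 6 exceeded day 4 at least 5.17-fold (adjusted p = 0.00873), day 16 at least 13.9-fold (2.7e-05) and day 30 at least 9.81-fold (7.0e-05). The fold rests much on the day 4 arrays: with no floor, day 16 was 32.7-fold above day 4 when day 4 replicate 1 was left out and 8.49-fold above it when replicate 2 was, and day 30 was 23.2-fold and 6.01-fold above it. Days 6, 8 and 16 passed in all 27 alternative fits of each.

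The second Vegfa probe set, 1451959_a_at, rose later. It had a log2 signal of 9.63, 7.83 and 8.53 on day 4, 9.46, 9.12 and 9.43 on day 6, 9.17, 6.83 and 9.34 on day 8, 10.98, 10.67 and 10.17 on day 16 and 10.41, 10.21 and 10.92 on day 30. Only on day 16, day 25 and day 30 do all 3 arrays lie above all of day 4. The difference from day 4 was 1.94 on day 16 (SE 0.51, adjusted p = 0.00758) and 1.85 on day 30 (0.00954, and 0.0597 without day 4 replicate 2), but 0.67 on day 6 (0.468). The 2 probe sets thus differ on days 6 and 8, where 1420909_at had passed.

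Adm encodes adrenomedullin, a secreted peptide that widens vessels and acts on their lining. Its probe set on 430A, 1416077_at, had a log2 signal of 8.48, 6.70 and 9.50 on day 4, 8.46, 8.78 and 9.48 on day 5, 8.09, 6.56 and 8.31 on day 6 and 8.35, 9.17 and 8.28 on day 8. It stood at 11.12, 10.67 and 10.30 on day 16, 10.76, 11.13 and 12.23 on day 25 and 11.39, 11.42 and 12.16 on day 30. The 9 arrays of the last 3 days all lie above the 12 earlier ones. Day 16 exceeded day 4 at least 5.24-fold (adjusted p = 0.00301) and day 30 did so at least 10.2-fold (1.4e-04). Without the floor the day 30 fold was 6.36 without day 4 replicate 2 and 16.8 without day 4 replicate 3. The suffix x_at marks probes that can also match other transcripts, here on Adm 1447839_x_at, Ndrg1 1456174_x_at and Pgk1 1438640_x_at and 1439435_x_at. The Adm probe set on 430B, 1447839_x_at, ran the same way as 1416077_at. Its log2 signal was 16.18, 16.19 and 17.43 on day 30 and 14.93, 16.13 and 15.91 on day 16, against 13.77, 12.73 and 15.00 on day 4. The difference from day 4 was 2.76 on day 30 (SE 0.64, adjusted p = 0.00759) and 1.82 on day 16, where it did not pass (0.104). The day 30 value had adjusted p = 0.0609 without day 4 replicate 2 and 0.0518 without day 30 replicate 3.

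Egln3 encodes the HIF prolyl hydroxylase that HIF itself is known to raise. It had the smallest F test p of the 24 (adjusted p = 2.8e-08 for 1418649_at), and it went down before it went up. Its log2 signal was 12.33, 12.33 and 12.23 on day 4, 12.03, 12.27 and 12.32 on day 5, 11.03, 11.11 and 11.76 on day 6 and 11.28, 11.33 and 11.11 on day 8. It was 13.70, 13.80 and 12.82 on day 16, 13.59, 13.87 and 14.50 on day 25 and 14.52, 14.10 and 14.11 on day 30. The arrays of days 6 and 8 lie below all of days 4 and 5, and those of days 16 to 30 above all of them. Relative to day 4 the signal fell by 1.00 on day 6 (SE 0.26, adjusted p = 0.026) and by 1.06 on day 8 (0.0089), then was higher by 1.14 on day 16 (0.00286) and by 1.95 on day 30 (3.86-fold, 1.5e-05). The fall on day 6 had adjusted p = 0.13 without day 6 replicate 1, 0.122 without day 6 replicate 2 and 0.0773 without day 4 replicate 2, and that on day 8 passed in all 27 alternatives. The other Egln3 probe set, 1418648_at, was lower by 1.74 on day 6 (log2 difference -1.74, 0.00653) and by 1.27 on day 8 (-1.27, 0.0141, but 0.0726 without day 4 replicate 2 and 0.0664 without day 8 replicate 2), not past on day 16 (0.28, 0.603) and higher by 1.42 on day 30 (0.00333).

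Ndrg1 encodes a protein of stressed and differentiating cells, and its 5 probe sets on 430A were all higher on day 16 than on days 6 and 8 but differed in their level on day 4. The brightest, 1420760_s_at, had a log2 signal of 12.46, 11.44 and 12.18 on day 4, 12.64, 12.08 and 11.86 on day 5, 11.64, 12.17 and 11.60 on day 6 and 11.70, 12.08 and 11.66 on day 8. It had 14.14, 14.16 and 14.08 on day 16, 14.07, 13.60 and 14.65 on day 25 and 14.35, 13.79 and 14.61 on day 30. The early and late arrays do not overlap, and the 3 late days do not separate from each other. Day 16 was higher than day 4 by 2.10 (SE 0.29, adjusted p = 3.5e-05) and day 30 by 2.22 (4.67-fold, 1.3e-05).

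The probe sets 1456174_x_at and 1450976_at of Ndrg1 rose in the same way, by 1.85 (2.0e-04) and at least 4.59-fold (0.00578) on day 30. For 1450976_at the day 30 fold computed with no floor was 8.22 when day 4 replicate 1 was left out and 3.00 when replicate 2 was. The probe sets 1423413_at and 1450977_s_at of Ndrg1 instead dipped first. For 1423413_at the log2 signal was 8.03, 8.56 and 7.84 on day 6 and 10.28, 10.64 and 9.51 on day 16, against 10.00, 10.75 and 9.64 on day 4, and relative to day 4 it differed by -1.99 on day 6 (0.0092), by 0.01 on day 16 (0.987) and by 0.57 on day 30 (0.339). For 1450977_s_at the signal was at least 4.06-fold lower on day 6 (0.00968) and at least 4.12-fold lower on day 8 (0.0037). It was higher than day 4 by 1.77 on day 25 (0.0359, with 22 of 27 alternatives past), and day 30 did not pass (1.61, 0.0532). The day 6 falls had adjusted p = 0.051 and 0.0673 without day 6 replicate 1, and 0.0555 and 0.0547 without day 4 replicate 2, in the same order. The day 8 fall of 1423413_at had 0.0724 without day 4 replicate 2 and 0.0982 without day 8 replicate 1. The probe sets of this gene therefore disagree on whether it was lower on days 6 and 8 than on day 4.

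Car9 encodes a carbonic anhydrase on the cell surface that helps export acid. Its probe set 1427013_at had a log2 signal of 9.41, 8.59 and 9.37 on day 4, 8.30, 9.23 and 7.81 on day 5, 8.71, 8.47 and 7.88 on day 6 and 8.68, 8.46 and 9.23 on day 8. It had 11.69, 11.39 and 10.06 on day 16, 11.89, 11.57 and 11.50 on day 25 and 12.34, 11.72 and 11.62 on day 30. All 9 late arrays lie above all 12 early ones, with day 16 replicate 3 the lowest of the late ones. Day 16 was 3.80-fold above day 4 (log2 difference 1.93, SE 0.41, adjusted p = 0.00158) and day 30 was 6.83-fold above it (2.77, 4.0e-05). Car9 was not past the threshold on days 5, 6 or 8 (log2 differences -0.67, -0.76 and -0.33).

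Bnip3 encodes a protein of the outer mitochondrial membrane that marks mitochondria for removal. Its rise was smaller. The log2 signal of 1422470_at was 14.40, 14.18 and 14.94 on day 4, 14.10, 14.38 and 14.16 on day 6, 14.20, 14.64 and 14.42 on day 8, 15.17, 15.13 and 14.99 on day 16, 15.20, 15.60 and 15.75 on day 25 and 15.39, 15.55 and 15.85 on day 30. The arrays of days 16, 25 and 30 lie above all of day 4. Day 30 was 2.13-fold above day 4 (log2 difference 1.09, SE 0.21, adjusted p = 6.4e-04) and day 25 was 2.01-fold above it (0.00143). The day 16 difference of 0.59 was close to the threshold (0.0452) and passed in 15 of 27 alternatives. Over these its adjusted p ran up to 0.185, the value with arrays centred on their median.

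Slc2a1 encodes the glucose transporter Glut1. It was not higher on any day, and 1 of its 3 probe sets was lower from day 8 on. For 1434773_a_at the log2 signal was 15.27, 15.72 and 14.97 on day 4, 15.40, 15.48 and 15.06 on day 5, 14.78, 14.82 and 15.10 on day 6, 14.02, 14.69 and 14.62 on day 8, 14.15, 14.58 and 14.22 on day 16, 14.76, 14.30 and 14.81 on day 25 and 14.52, 14.75 and 14.36 on day 30. From day 8 on, every array lies below all 3 of day 4. Relative to day 4 it differed by -0.88 on day 8 (SE 0.23, adjusted p = 0.0115), by -0.69 on day 25 (0.0274) and by -0.77 on day 30 (0.0135), and on day 16 it averaged 14.32 against 15.32 on day 4 (0.00257). With quantile normalization the differences on days 8, 16, 25 and 30 were -0.50, -0.57, -0.41 and -0.49 and none passed (adjusted p = 0.141, 0.0656, 0.187 and 0.11). Leaving out day 4 replicate 2 gave 0.0595 for day 8, 0.125 for day 25 and 0.0726 for day 30, and each was also past the threshold no longer without day 8 replicate 1 (0.0907), day 25 replicate 2 (0.128) or day 30 replicate 3 (0.0603) on those days. The other probe sets, 1426599_a_at and 1426600_at, had differences of -0.75 (0.0658) and -0.68 (0.111) on day 30, and only the second passed on a single day, day 25 (-0.89, 0.0391), in 21 of 27 alternatives.

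Ldha encodes the lactate dehydrogenase subunit that turns pyruvate into lactate. The log2 signal of 1419737_a_at was 17.08, 17.02 and 16.96 on day 4, 16.42, 16.69 and 16.97 on day 5, 15.77, 16.12 and 16.47 on day 6, 15.72, 16.46 and 15.84 on day 8, 16.04, 15.65 and 15.78 on day 16, 16.34, 16.42 and 16.19 on day 25 and 16.29, 16.28 and 16.47 on day 30. Every array from day 6 on lies below all of day 4. The signal fell by 0.90 on day 6 (SE 0.21, adjusted p = 0.0156), by 1.02 on day 8 (0.00278), by 1.20 on day 16 (2.29 times lower than on day 4, 3.2e-04), by 0.70 on day 25 (0.0175) and by 0.67 on day 30 (0.0209). With quantile normalization the differences kept their sign at -0.17, -0.37, -0.42, -0.38 and -0.33, and none passed (adjusted p = 0.659, 0.206, 0.118, 0.152 and 0.228). The falls passed in 24 of 27 alternatives on day 6, 26 on days 8 and 16, 25 on day 25 and 23 on day 30.

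Pgk1 encodes phosphoglycerate kinase, a glycolytic enzyme that makes ATP. Its 3 probe sets did not share 1 course. For 1438640_x_at the log2 signal was 17.16, 17.33 and 17.28 on day 4, 16.23, 16.45 and 16.90 on day 6, 16.58, 16.81 and 16.52 on day 8, 16.64, 16.23 and 16.20 on day 16, 17.55, 17.35 and 16.81 on day 25 and 17.34, 17.36 and 17.44 on day 30. The arrays of days 6, 8 and 16 lie below all of days 4 and 30. Relative to day 4 it differed by -0.73 on day 6 (adjusted p = 0.0358), -0.62 on day 8 (0.0457) and -0.90 on day 16 (SE 0.21, 0.00309), and day 30 was 2.03-fold above day 16 (the only call among the 24 for that pair of days, where 1.16% of all tested 430A probe sets were higher, log2 difference 1.02, 0.0109, and 0.0641 without day 16 replicate 2). With quantile normalization the first 3 turned to 0.05, 0.12 and 0.00 and the last to 0.22 (adjusted p = 0.891, 0.668, 0.998 and 0.538). The fall on day 8 passed in 10 of 27 alternatives, that on day 6 in 21 and that on day 16 in 26. For 1417864_at the falls on day 8 (-0.59, 0.0258) and day 16 (-0.52, 0.034) likewise turned to 0.13 and 0.38 (0.684 and 0.133). For 1439435_x_at day 8 was lower (-1.34, 0.0101) and day 30 too (-1.01, 0.0297), against -0.84 (0.0758) on day 30 with quantile normalization, and these passed in 26 and 21 of 27 alternatives.

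The Pgk1 probe sets 1417864_at and 1438640_x_at and the Ldha probe set lay above at least 99.5% of their array's probe sets on each of the 21 arrays. Quantile normalization gives equal ranks equal values. Under it their log2 differences on day 16 relative to day 4 were 0.38, 0.00 and -0.42 in the same order, none past the threshold. The 99th percentile of the 430A arrays, a measure of their bright end, was 14.80 ± 0.04 on day 16 and 15.01 ± 0.06 on day 30 against 15.24 ± 0.15 on day 4 (log2, SD, n = 3). Whether the bright end of the arrays or these transcripts differed was not tested, and the falls of Pgk1, Ldha and Slc2a1 given above passed with the deposited scaling and with arrays centred on their median. Centring moved the median difference of all tested 430A probe sets between day 16 and day 4 to -0.11, against 0.01 with the deposited scaling.

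**Figure D3:**
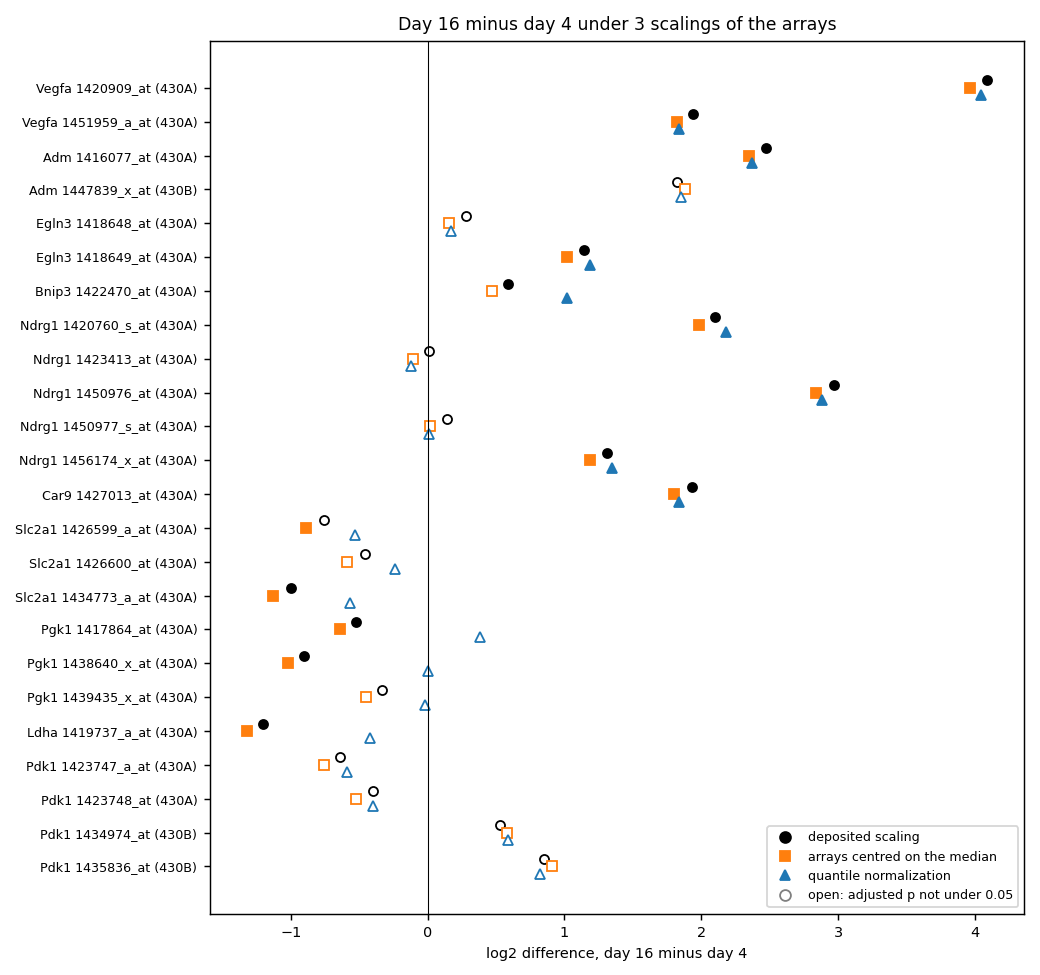
Log2 difference, day 16 minus day 4 (horizontal axis), of the 24 probe sets (rows) under the deposited scaling (circles), with arrays centred on their median (squares) and with quantile normalization (triangles), filled where the adjusted p was under 0.05. The scalings lie close together for Vegfa, Adm, Egln3, Ndrg1 and Car9. For Pgk1 1438640_x_at the difference is -0.90 with the deposited scaling and 0.00 with quantile normalization.

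Pdk1 encodes the kinase that switches off pyruvate dehydrogenase, and its 4 probe sets missed the F test (adjusted p = 0.0822, 0.263, 0.988 and 0.524). The log2 signal of 1423747_a_at was 12.20, 11.66 and 11.31 on day 30, against 12.09, 12.73 and 13.67 on day 4, and these ranges overlap. The difference was -1.10 (SE 0.33, adjusted p = 0.0154) and became -0.68 (0.114) without day 4 replicate 3 and -0.90 (0.0819) without day 30 replicate 3. For 1423748_at the difference was -0.88 (0.0315), and -0.54 (0.195) without day 4 replicate 3, with 22 of 27 alternatives past. The probe sets on 430B, 1434974_at and 1435836_at, had differences of 0.72 (0.789) and 0.32 (0.661) and passed on no day, the first with a SE of 1.08. On every day but day 30, 1434974_at had 1 of its 3 arrays under the floor of the chip.

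Within the scan batch that holds days 6, 8 and 16, the 24 probe sets could be compared between these days without a change of batch. On day 16 relative to day 8, 10 of the 24 probe sets were higher, all on 430A, where 2.36% of all tested probe sets were higher, and 0 were lower (0.719%). Relative to day 6 there were also 10 higher (6.77%) and 0 lower (4.5%). The 10 belong to Egln3, Ndrg1, Car9 and Adm in both comparisons, with Vegfa in the first and Bnip3 in the second. At an unadjusted p under 0.05 in limma's fit, 14 were higher and 0 lower relative to day 8, and 13 were higher and 1 lower relative to day 6. Fitted on the arrays of days 6, 8 and 16 alone (9 on each chip), the counts were 10 with day 8 and 11 with day 6. The count with day 8 was 4 without day 16 replicate 2, and between 4 and 11 over the arrays left out.

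Egln3 had the smallest adjusted p for day 16 with day 8. Its probe set 1418649_at was 4.60-fold higher (log2 difference 2.20, SE 0.26, adjusted p = 5.3e-05), and 1418648_at was higher by 1.55 (0.0117, with 25 of 28 alternatives past). Ndrg1 1420760_s_at was 4.98-fold higher (2.32, 8.3e-05), and the other 4 Ndrg1 probe sets passed too. Of these 1450976_at was at least 6.02-fold and 1450977_s_at at least 4.55-fold higher, and 1423413_at was higher by 1.59 (0.0394, with 22 of 28 alternatives past and 0.0516 in the fit of the batch alone). Car9 was 4.78-fold higher (2.26, 0.00264). Adm 1416077_at was higher by 2.10 but close to the threshold (0.0481, with 11 of 28 alternatives past), and relative to day 6 it was at least 7.54-fold higher (0.00138). Vegfa 1451959_a_at was at least 4.33-fold higher (0.0212), but by 1.35 on the log2 scale without day 8 replicate 2 (0.118), and 24 of 28 alternatives were past. Vegfa 1420909_at was higher by 1.40 and did not pass over all arrays (0.221), while its adjusted p was 0.0058 in the fit of the batch alone, with the 3 day 16 arrays above all of day 8. Slc2a1, Ldha and the 430A probe sets of Pdk1 had differences between -0.18 and 0.22, none past the threshold, and Pgk1 1439435_x_at had 1.01 (0.127).

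**Figure D4:**
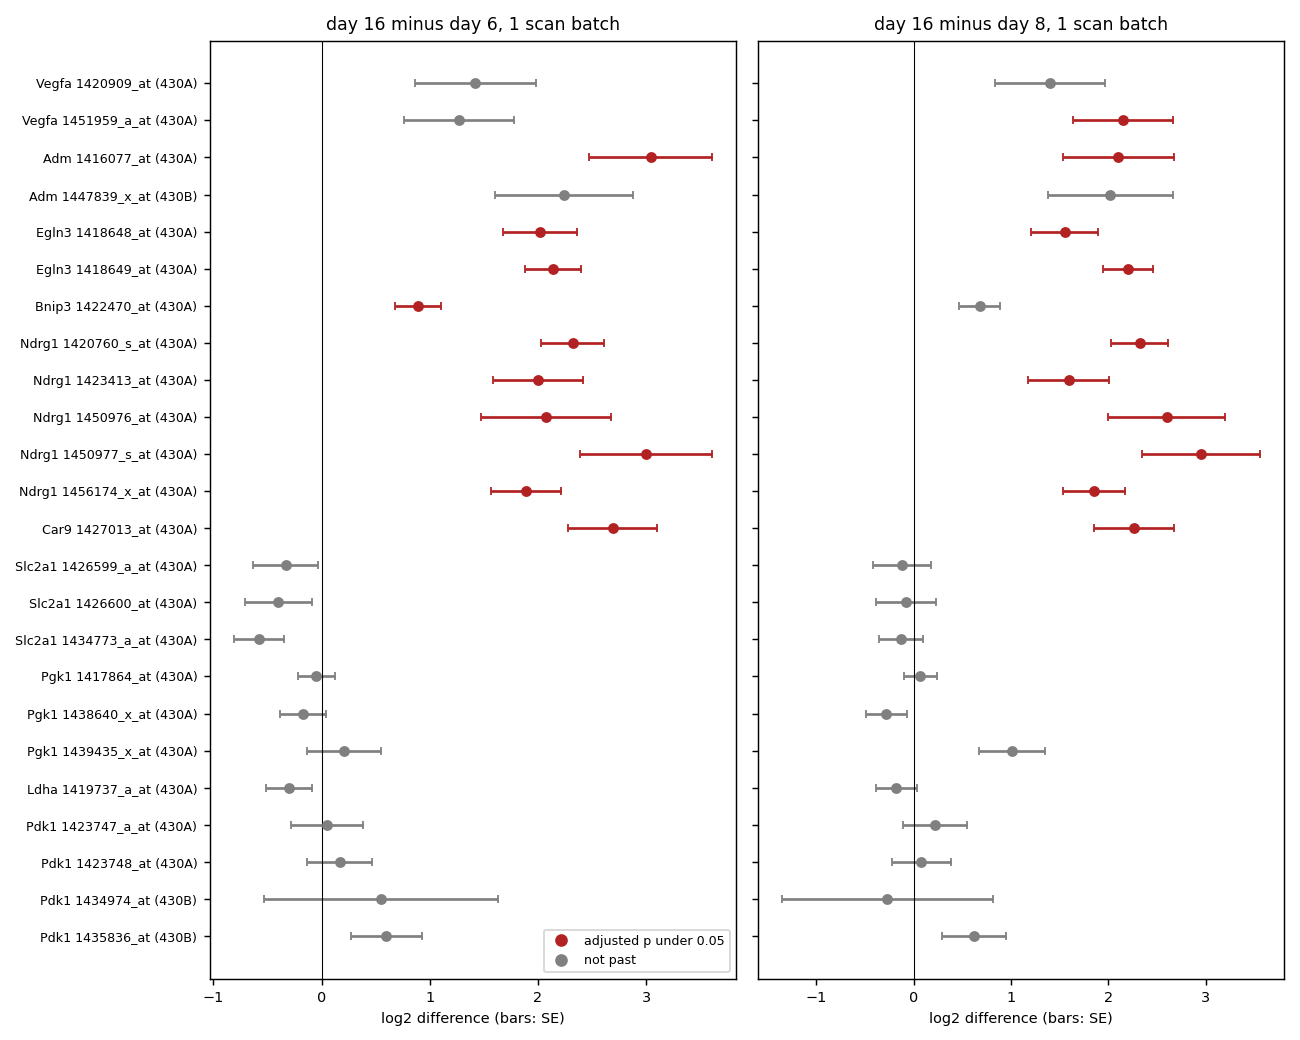
Log2 difference of day 16 from day 6 (left) and from day 8 (right) with its standard error (bars) for the 24 probe sets (rows), red where limma's adjusted p was under 0.05. All red points lie right of 0 and belong to Vegfa, Adm, Egln3, Bnip3, Ndrg1 and Car9, and the probe sets of Slc2a1, Pgk1, Ldha and Pdk1 are all grey.

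Of the 5 tested osteoblast markers none passed on day 16 relative to day 8 (0 at an unadjusted p under 0.05 in limma). They summed to 146930 to 232289 on day 16 against 112762 to 170313 on day 8. Some markers of other cell types did differ over the same step. The 3 keratins of the basal epithelium list (Krt14, Krt5 and Krt15) were all higher on day 16 than on day 8, Krt15 at least 43.5-fold (adjusted p = 2.4e-05). Their summed signal was 39639, 16285 and 3626 in replicates 1 to 3 of day 16, against 221 to 715 on day 8. In the same replicate 3 of day 16, 16 of the 24 probe sets had their lowest value of that day, Egln3 1418649_at, Car9 and Adm 1416077_at among them. On days 25 and 30 the order was otherwise. There replicate 3 had the lowest keratin sum of its day (4862 and 3765) and the highest value for 17 and 14 of the 24 probe sets. The same counts over all probe sets were not made, so a shift of the whole array cannot be told apart from these. The 24 also include Slc2a1, Pgk1, Ldha and Pdk1, and several probe sets of the same gene. Of the 4 tested endothelium markers 2 were lower on day 16 than on day 8 (Tek and Kdr), and the 4 summed to 2565 to 4134 on day 16 against 10132 to 11096 on day 8. Of the 5 erythroid markers none passed relative to day 8 (4 had an unadjusted p under 0.05 in limma), and they summed to 1807 to 4151 on day 16 against 37534 to 138681 on day 8. Of the 6 endoderm and 4 macrophage markers none passed either (2 and 2 at an unadjusted p under 0.05). Their sums were 51521 to 125924 and 9699 to 24024 on day 16, against 46795 to 67532 and 5394 to 21640 on day 8. The 4 cardiac markers did not pass (2 unadjusted) and summed to 1746 to 16298 on day 16 against 17618 to 42784 on day 8. On day 30 relative to day 4, 5 of 6 endoderm, 3 of 4 macrophage and all 3 basal epithelium markers were higher. Their sums were 229409 to 270947, 13051 to 16422 and 3765 to 14096 on day 30, against 6042 to 22634, 2572 to 3619 and 197 to 650 on day 4. Of the 4 endothelium markers 2 were higher (Tek and Cdh5) and Kdr was lower, with sums of 2917 to 3995 on day 30 against 1907 to 10675 on day 4. None of the 5 erythroid and 4 cardiac markers passed then (0 at an unadjusted p under 0.05 in limma), with sums of 1240 to 2257 and 1311 to 1893 on day 30 against 1096 to 3453 and 1532 to 2119 on day 4. The part of these cells in the rises, on day 16 or on day 30, was not tested.

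Of 30 other known hypoxia targets listed, 27 were on the chips and tested, with 1 probe set per gene, 25 of them on 430A. On day 30 relative to day 4, 12 were higher, 1 was lower and 14 did not pass, where 14.2% of all tested 430A probe sets were higher and 13.9% lower, with a median log2 difference of 0.93 against -0.06 over all tested probe sets. The largest were enzymes that modify collagen, namely the lysyl hydroxylase Plod2 (19.6-fold, adjusted p = 7.5e-09), the prolyl hydroxylase subunit P4ha2 (19.4-fold, 4.2e-08) and the lysyl oxidase Lox (18.3-fold, 1.4e-05), with the vessel peptide Edn1 next (at least 6.77-fold, 8.3e-04). The gene that was lower was the mTOR inhibitor Ddit4 (log2 difference -1.76, 6.2e-04), named after its value was seen. On day 16, 9 were higher than on day 8 and 0 lower (backgrounds 2.36% and 0.719%, median 0.70), and 14 were higher and 1 lower than on day 6 (6.77% and 4.5%, median 0.89). The count with day 8 was 5 when arrays were centred on their median and 5 to 11 when single arrays were left out. Lox was 8.30-fold higher on day 16 than on day 8 (0.00303), while P4ha2 (1.28, 0.0494) and Plod2 (1.09, 0.0475) lay close to the threshold, with 12 and 11 of 28 alternatives past. Collagen enzymes also serve matrix formation. Col1a1 and Col1a2 were higher on day 30 than on day 4, as given above. On day 16, 3 of the 5 tested osteoblast markers were higher than on day 6. None of the 5 passed relative to day 8 (0 at an unadjusted p under 0.05 in limma). The part of matrix formation in these rises was not tested.

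Of 10 regulators of HIF (8 measured on 430A and 2 on 430B), 4 were higher on day 30 than on day 4, 0 were lower and 6 did not pass, with a median of 0.42. The backgrounds are those given for the hypoxia targets. Epas1, the HIF-2 alpha subunit, rose at least 5.88-fold (adjusted p = 0.00713), and the HIF inhibitor Cited2 rose 4.83-fold (6.4e-05). The main prolyl hydroxylase Egln1 was 2.40-fold higher (5.1e-05), and the HIF-1 alpha subunit Hif1a was 1.97-fold higher (0.00655). Hif1a was already higher than on day 4 by 1.32 on day 6 (0.00621), by 1.51 on day 8 (6.2e-04) and by 1.42 on day 16 (3.7e-04). On day 16 relative to day 8, when Egln3 rose, none of the 10 passed (2 at an unadjusted p under 0.05 in limma) and Hif1a differed by -0.09 (0.944). Relative to day 6, 1 of the 10 was higher on day 16 (background 6.77% on 430A) and 0 were lower. That gene was Egln1 (0.95, 0.00231). HIF-1 is controlled mainly through protein stability, which arrays do not measure.

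Of 17 other enzymes of glycolysis 13 were tested, all on 430A. On day 30 relative to day 4, 1 was higher (background 14.2%), 5 were lower (13.9%) and 7 did not pass, with a median of -0.65 (-0.38 with quantile normalization, when 4 were lower). Pyruvate kinase Pkm was 3.03 times lower (adjusted p = 1.2e-04), phosphofructokinase Pfkl was lower by 1.35 (log2 difference -1.35, 4.7e-05) and Ldhb by 1.21 (-1.21, 0.0217, with 24 of 27 alternatives past). Aldoa (-0.84, 0.00658) and Aldoc (-0.87, 0.0199) were the others, named after their values were seen. Hexokinase Hk1 was 3.18-fold higher (6.6e-05). On day 16 none of the 13 passed relative to day 8 (median 0.20, and 0 at an unadjusted p under 0.05 in limma), and 1 was higher than on day 6. Leaving out single arrays gave 3 to 6 lower on day 30.

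Around pyruvate dehydrogenase the counts lay near the background. Of 11 tested genes, 8 of them on 430A, 1 was higher (background 14.2% on 430A) and 1 was lower (13.9%) on day 30, with a median of 0.09. The kinase Pdk3 was at least 6.30 times lower (adjusted p = 1.6e-04) and the subunit Dld was 2.38-fold higher (0.0262, with 23 of 27 alternatives past and 0.16 without day 4 replicate 2). Of the 10 genes for receptors of Vegfa and adrenomedullin, all on 430A, 3 were higher, 2 were lower and 5 did not pass (median 0.59), against the same backgrounds. The scavenging receptor Ackr3 was 4.18-fold higher (0.00606) and the Vegfa receptor Flt1 was 2.93-fold higher (0.00465). The main signalling receptor Kdr was 2.72 times lower (0.0243, with 24 of 27 alternatives past and 0.176 without day 4 replicate 1), and the co-receptor Ramp3 was 2.35 times lower (0.0258, with 23 of 27 past and 0.141 without day 4 replicate 3). Ramp2 (1.02, 0.0334) was the other higher gene, named after its value was seen. Kdr was also 3.70 times lower on day 16 than on day 8 (0.0271, with 22 of 28 past).

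**Figure D5:**
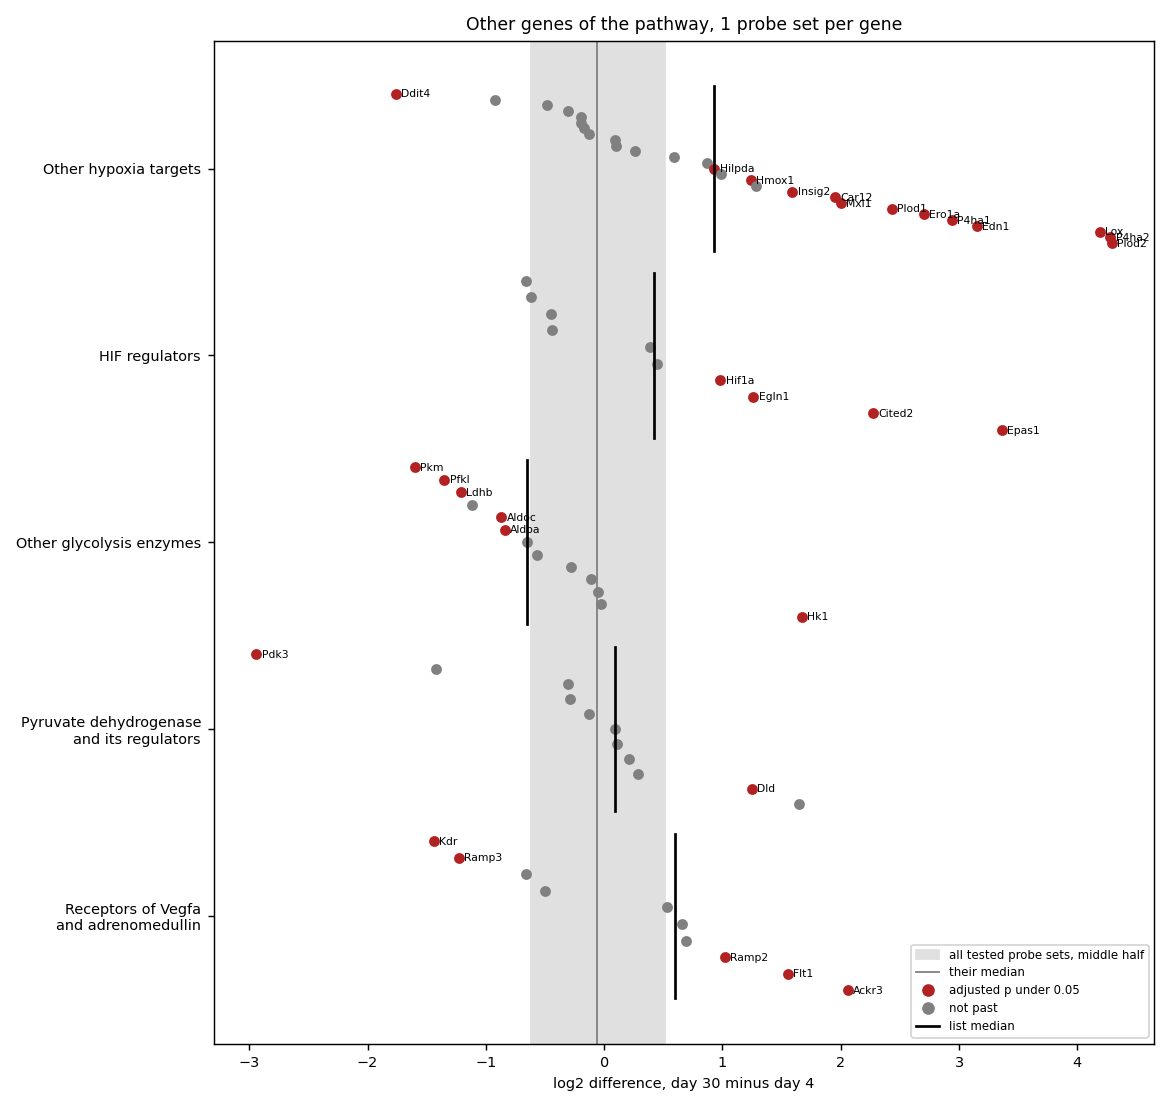
Log2 difference, day 30 minus day 4 (horizontal axis), of the genes of 5 lists (rows), red and named where limma's adjusted p was under 0.05, with the list median as a black bar and the middle range (25th to 75th percentile) of all tested probe sets in grey. The hypoxia targets reach above 4 with Plod2, P4ha2 and Lox, while most glycolysis enzymes lie left of 0.

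The genes whose course was most like those of the 3 members with the smallest F test p were found by Pearson's r of log2 signal over the 21 arrays, among 10086 other genes on 430A. These arrays share days, so r mainly reflects the day means and is given without a p. For Egln3 they were Pdzk1ip1 (r = 0.948), Ier3 (0.948), Car12 (0.945), Cystm1 (0.943) and Ero1a (0.941). For Ndrg1 they were Ero1a (0.961), Ccl20 (0.961), Muc1 (0.953), Rarres2 (0.949) and Ehf (0.941), and for Car9 they were Plet1 (0.963), Rarres2 (0.949), Ero1a (0.944), Gsto1 (0.944) and Anxa4 (0.944). Ero1a, an oxidase of the endoplasmic reticulum that is itself on the list of hypoxia targets, is among the 5 for all 3 members. Car12 is on that list too, and the other genes named here are not. Of these others Ccl20, Muc1, Rarres2 and Ehf had day means under the floor of the chip (log2 6.95) on days 4 to 8. Among the 10 genes themselves, Egln3 had r of 0.902 with Ndrg1, 0.899 with Car9, 0.887 with Bnip3 and 0.884 with Adm. Its r was 0.454 with Vegfa, 0.460 with Pgk1, 0.013 with Ldha, -0.235 with Pdk1 and -0.268 with Slc2a1.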

How the data were processed

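Total RNA of 21 samples (7 days, 3 replicates) was hybridised to 2 Affymetrix chips, giving 42 arrays. The authors deposited 1 signal intensity per probe set and array, made with MAS5 per the submitters' processing notes (version not given). In the deposited intensities the mean after trimming 2% at each end was 1501 on every 430A array and 1500 on every 430B array, so each array had been scaled to a common level. Array medians were 476 to 684.3 on 430A and 793.7 to 905.2 on 430B. Replicates of a day correlated at 0.853 to 0.94 on 430A and 0.726 to 0.818 on 430B, so 430B measured with less precision, and 3 arrays a day limit the precision throughout.

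Signals were taken to log2 with no further scaling. Probe sets above the 40th percentile of an array on 3 or more arrays were tested, with 64 control probe sets per chip left out, which kept 16686 of 22690 on 430A and 18239 of 22575 on 430B. Day was fitted over the 21 arrays of a chip in limma 3.58.1 (R 4.3.3), with 14 residual degrees of freedom, a trended prior and Benjamini-Hochberg adjustment per chip and comparison. Tests were two-sided, and an adjusted p under 0.05 was called past. Values under a chip's 20th percentile (log2 6.95 and 7.67) have no order, so a fold with such an array on its low side is given as a bound with those values raised to that floor. The fit was tested on simulated data.

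Gene symbols came from the platform annotation, which gives 1 symbol for 20393 probe sets on 430A (several for 691, none for 1606) and for 14674 on 430B (several for 245, none for 7656). A gene of a list was represented by its brightest tested probe set, with 430A before 430B. Genes of the lists were named where they were the largest calls of a list on day 30, and others are marked as named after their values were seen. The members and lists were chosen with earlier results of these data known. Deviations of same-numbered replicates from their day means correlated at -0.102 to 0.356 over 63 pairs on 430A (16 over 0.1) and at -0.0435 to 0.115 on 430B (1 over 0.1). Since not every pair was over 0.1 and the labels name nothing that a number shares, the number was a block only in an alternative. The alternatives were no filter, log2(signal + 100), quantile normalization, median centring, a replicate block, scan batch as a random block, leaving out each sample, and, chosen after seeing the data, the scan batch of days 6, 8 and 16 alone.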

Additional observations from a re-analysis of the deposited data

How the results depend on the processing

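Values of single genes were recomputed in 1488 combinations of result and setting besides leaving out samples. Of these 1430 kept their side of the threshold, 35 lost the threshold, 18 gained it and 5 turned. Direction was compared only where a value passed in either fit, so values that passed in neither count as kept whatever their sign. The 5 that turned are Pgk1 probe sets under quantile normalization: 1438640_x_at at 0.05 on day 6, 0.12 on day 8 and 0.00 on day 16, and 1417864_at at 0.13 on day 8 and 0.38 on day 16, all relative to day 4. By construction quantile normalization gives probe sets of equal rank the same value on every array. Of 5040 values with 1 sample left out, 4847 were the same by that rule, 156 lost the threshold, 37 gained it and 0 turned. Counts of the 24 probe sets past the threshold differed by over 1.5 times on day 8 (6 with quantile normalization against 10) and for day 30 with day 16 (2 with log2(signal + 100), 0 with quantile normalization and 2 with scan batch as a random block, against 1). Counts over all probe sets did so on day 5 (1 with log2(signal + 100) and 7 with the replicate block, against 2) and for day 16 with day 8 (916 within the scan batch alone, against 589). With the replicate block 19 of the 24 passed the F test and 17 passed on day 30, and the samples share only a number: 16 of 21 on 430A and 13 of 21 on 430B correlated best with their own number, a hint from the data and not the design.

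With median centring the calls on 430A split into 430 higher and 641 lower on day 6 (677 and 568 with the deposited scaling), 1267 and 1290 on day 8 (1609 and 1139), 1941 and 2317 on day 16 (2354 and 1914) and 1772 and 2736 on day 25 (2244 and 2172). Leaving out single samples, members past the threshold numbered 18 to 20 for the F test, 0 to 1 on day 5, 2 to 8 on day 6, 5 to 10 on day 8, 12 to 14 on day 16, 11 to 17 on day 25, 12 to 18 on day 30, 9 to 11 for day 16 with day 6, 4 to 11 for day 16 with day 8 and 0 to 2 for day 30 with day 16. Over all probe sets the ranges were 6987 to 8050, 1 to 209, 204 to 2578, 1678 to 3781, 3748 to 5452, 4327 to 5702, 4947 to 6280, 1057 to 2711, 236 to 754 and 176 to 875 in the same order. The causes of these changes were not tested. Signals near the floor limit Vegfa, Adm and Ndrg1 on the early days, and Pdk1 1434974_at on every day but day 30.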
